A study of Mus musculus with 49 samples.

Results

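The genes described here encode the subcortical maternal complex of the mouse oocyte and early embryo, together with proteins that oocytes make alongside it. They are Nlrp5, Ooep, Tle6, Khdc3, Zbed3, Padi6, Nlrp2, Nlrp4f, Nlrp14 and Npm2, chosen by name as the rows of the count tables whose Ensembl identifier carries one of these symbols in GENCODE, and they make up 10 of the 54838 genes counted. Their RNA was measured in single late 2-cell embryos by Smart-seq+5', in which reads that begin at the 5' end of a transcript are told apart from the rest and alone enter the counts. The study asked how expression in the embryo, that of transposable elements above all, depends on TBP, the TATA box-binding protein of the general transcription machinery, and on the forkhead factor FOXJ3, each removed by Trim-Away, in which an injected antibody marks its target protein for degradation through the ubiquitin ligase Trim21.

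All embryos came from matings between F1 hybrids of C57BL/6J and CBA/H, and zygotes were taken 17 to 18 h after hCG, the hormone given to induce ovulation, and the embryos were lysed at 48 h. TBP loss of function (LOF) embryos received a mouse monoclonal antibody to TBP and their CONTROL embryos mouse IgG, whereas FOXJ3 LOF embryos received a rabbit polyclonal antibody to FOXJ3 and their CONTROL embryos rabbit IgG. Every group, CONTROL included, was injected with mCherry-Trim21 mRNA 4 h later, so the ligase was present in all of them. Of 49 embryos, 47 passed quality control: 9 TBP LOF, 9 mouse IgG CONTROL, 16 FOXJ3 LOF (9 in library batch 1 and 7 in batch 2) and 13 rabbit IgG CONTROL (7 and 6). Each library is a whole embryo taken at the late 2-cell stage, so values are per embryo and not per cell. The labels give no count of cells for single embryos.

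The subcortical maternal complex assembles in the growing oocyte, lies beneath the membrane of the egg, and stays in the outer cytoplasm of the cleaving embryo. Its genes are classical maternal effect genes: the oocyte transcribes them, the egg inherits their RNA and protein, and the RNA is then cleared as the embryo's own genome is switched on. Embryos of mothers that lack Nlrp5 or Ooep stop during the first cleavages, and the proteins are also tied to the cytoplasmic lattices in which the egg stores material for the embryo.

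Sequencing gave 1103569 to 5434808 counted reads per embryo among the 47. ERCC spike-in RNA, added in the lysis buffer and used as a yardstick for RNA per embryo, took a median of 4.38% of reads in TBP LOF embryos (2.67 to 6.12%) and 2.82% in mouse IgG CONTROL embryos (2.22 to 3.25%). Tbp RNA was at 77 ± 50.8 spike-in-scaled reads in TBP LOF and 338 ± 149 in CONTROL embryos (mean ± SD, n = 9 each). Foxj3 RNA was at 327 ± 104 (n = 16) in FOXJ3 LOF and 249 ± 121 (n = 13) in CONTROL embryos. Trim-Away acts on protein, so that these RNA levels do not test the loss of either factor.

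Values are given on 2 scales. Reads divided by a size factor from the spike-ins (spike-in-scaled reads) follow the amount of RNA per embryo, and reads per 1000000 reads of genes and transposable elements (TEs), written RPM, follow a gene's share of the RNA. The choice matters in the TBP experiment, where the median gene was at a log2 fold change of -0.70 with spike-in scaling and at 0.13 with TMM, which centres the bulk of the genes. Spike-in scaling is the main scale for TBP, as in the study.

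The members lie on 6 chromosomes (coordinates in GRCm38). Chromosome 7 holds Nlrp5 (chr7:23385889-23441922, plus strand), Nlrp2 (chr7:5298547-5351035, minus) and Nlrp14 (chr7:107166990-107198102, plus). Ooep (chr9:78376109-78378725, minus) and Khdc3 (chr9:73101836-73104438, plus) share chromosome 9, and Zbed3 (chr13:95323612-95337841, plus) and Nlrp4f (chr13:65177111-65205977, minus) share chromosome 13. Tle6 (chr10:81590904-81601073, minus), Padi6 (chr4:140727355-140742643, minus) and Npm2 (chr14:70647302-70659244, minus) lie alone. All 10 are protein-coding.

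Because TBP is named for the TATA box, the promoters of the members were searched on both strands for the motif TATAAAA, for its form with T as the last base, TATAAAT, and for the forms with T in place of the A before the last pair of bases, TATATAA when A ends the motif and TATATAT when T does, in RefSeq windows from 250 bases before to 50 after each transcription start (GRCm38.p6); the letters of these motifs can overlap. RefSeq windows were found for 8 members, with 12 starts, and Nlrp14 and Npm2 had no entry. A motif on either strand occurred in 3 of the 12 windows and in 12.5% of all 32851 windows. A TATA box lies on the gene's own strand and starts 40 to 20 bases before the start. There the motif occurred in 1 of the 12 windows, the first of the 3 of Zbed3, and in 1.96% of all windows. The 100 bases before the start are shown for Zbed3, the member with the largest change in TBP LOF embryos, and for 4 others that carry none of these letters there, Nlrp5, Ooep, Tle6 and Nlrp4f, each 5' to 3' on the strand of the gene with the motif in capitals.
Zbed3 (chr13:95323505-95323604, plus; the first of 3 starts, motif beginning at -31): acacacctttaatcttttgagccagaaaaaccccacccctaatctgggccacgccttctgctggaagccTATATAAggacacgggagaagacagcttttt
Nlrp5 (chr7:23385789-23385888, plus; the first of 2 starts): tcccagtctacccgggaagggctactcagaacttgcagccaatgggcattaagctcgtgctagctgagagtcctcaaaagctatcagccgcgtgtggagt
Ooep (chr9:78378589-78378688, minus): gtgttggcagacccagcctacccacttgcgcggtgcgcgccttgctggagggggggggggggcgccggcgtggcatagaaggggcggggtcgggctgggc
Tle6 (chr10:81600901-81601000, minus; the first of 2 starts): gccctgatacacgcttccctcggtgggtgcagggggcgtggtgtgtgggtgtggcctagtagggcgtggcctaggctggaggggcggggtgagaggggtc
Nlrp4f (chr13:65205717-65205816, minus): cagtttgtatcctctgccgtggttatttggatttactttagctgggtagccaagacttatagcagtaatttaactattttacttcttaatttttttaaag
G and C made up 48% of the bases shown for Zbed3, 55% for Nlrp5, 76% for Ooep, 70% for Tle6 and 32% for Nlrp4f. A match to the letters is a description of the window and not a binding site. The starts are those of RefSeq, and for Ooep, Tle6 and Nlrp4f they lie inside the gene coordinates given above. The stretches shown for these genes thus lie within the gene and not before its annotated 5' end. For Nlrp4f the window searched did not reach that end, so the bases before it were not searched.

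All 10 members were detected in each of the 47 embryos, at very different levels. Per kb of exon, Zbed3, a zinc finger protein of the BED type that has been described with the complex, stood far above the rest, at 355 ± 70.2 RPM per kb in mouse IgG CONTROL embryos (n = 9). Npm2, which encodes nucleoplasmin, a histone chaperone of the egg nucleus, followed at 47.4 ± 12. The third was Nlrp14, an NLR family protein of the oocyte, at 20.8 ± 4.49, and these 3 ranges did not overlap. From there the order was Padi6 (20.5), Tle6 (16.4), Ooep (16.4), Nlrp4f (12.4), Nlrp5 (8.96), Khdc3 (5.47) and Nlrp2 (2.09), and each neighbouring pair overlapped in range. Zbed3 and Npm2 came first and second, and Nlrp5, Khdc3 and Nlrp2 came last in that sequence, in all 4 groups of embryos. The middle positions were exchanged between groups, with Padi6 next after Npm2 in both groups of the FOXJ3 experiment. Only 5' ends were counted, so a value per kb of exon lowers long transcripts, and without division by length 3 of the 10 members kept the same position in mouse IgG CONTROL embryos.

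**Figure D1:**
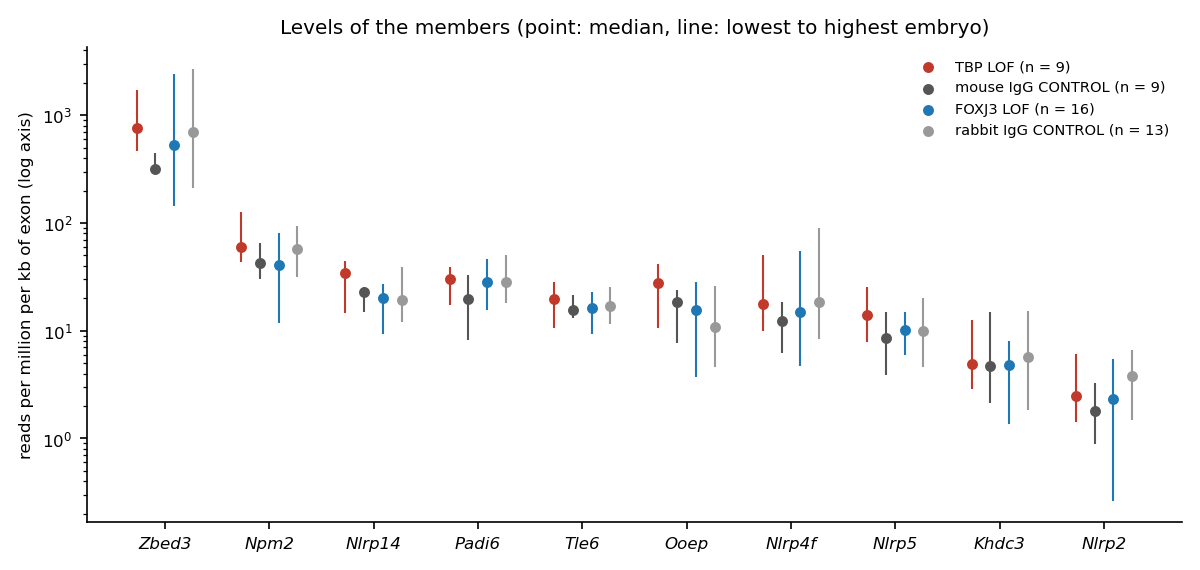
Level of each member in RPM per kb of exon (log axis), with the point at the median and the line from the lowest to the highest embryo, for TBP LOF (n = 9), mouse IgG CONTROL (n = 9), FOXJ3 LOF (n = 16) and rabbit IgG CONTROL (n = 13). Zbed3 lies above every other member in all 4 groups, and Khdc3 and Nlrp2 lie lowest.

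Genes of the complex were not called lower in TBP LOF embryos. With spike-in scaling, 1 of the 10 members passed the threshold, Zbed3, and it was higher, whereas 29.7% of all genes and TE families tested were called lower and 1.34% higher (31.1% in either direction). The median log2 fold change of the members was 0.06 against -0.70 for all genes, and 10 of 10 members lay above that all-gene median. For the other 9 the adjusted p lay between 0.259 and 0.935 (edgeR's quasi-likelihood test, Benjamini-Hochberg). A p that misses the threshold does not show that a level stayed the same, and the standard errors of 0.29 to 0.45 on the log2 scale are wide.

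**Figure D2:**
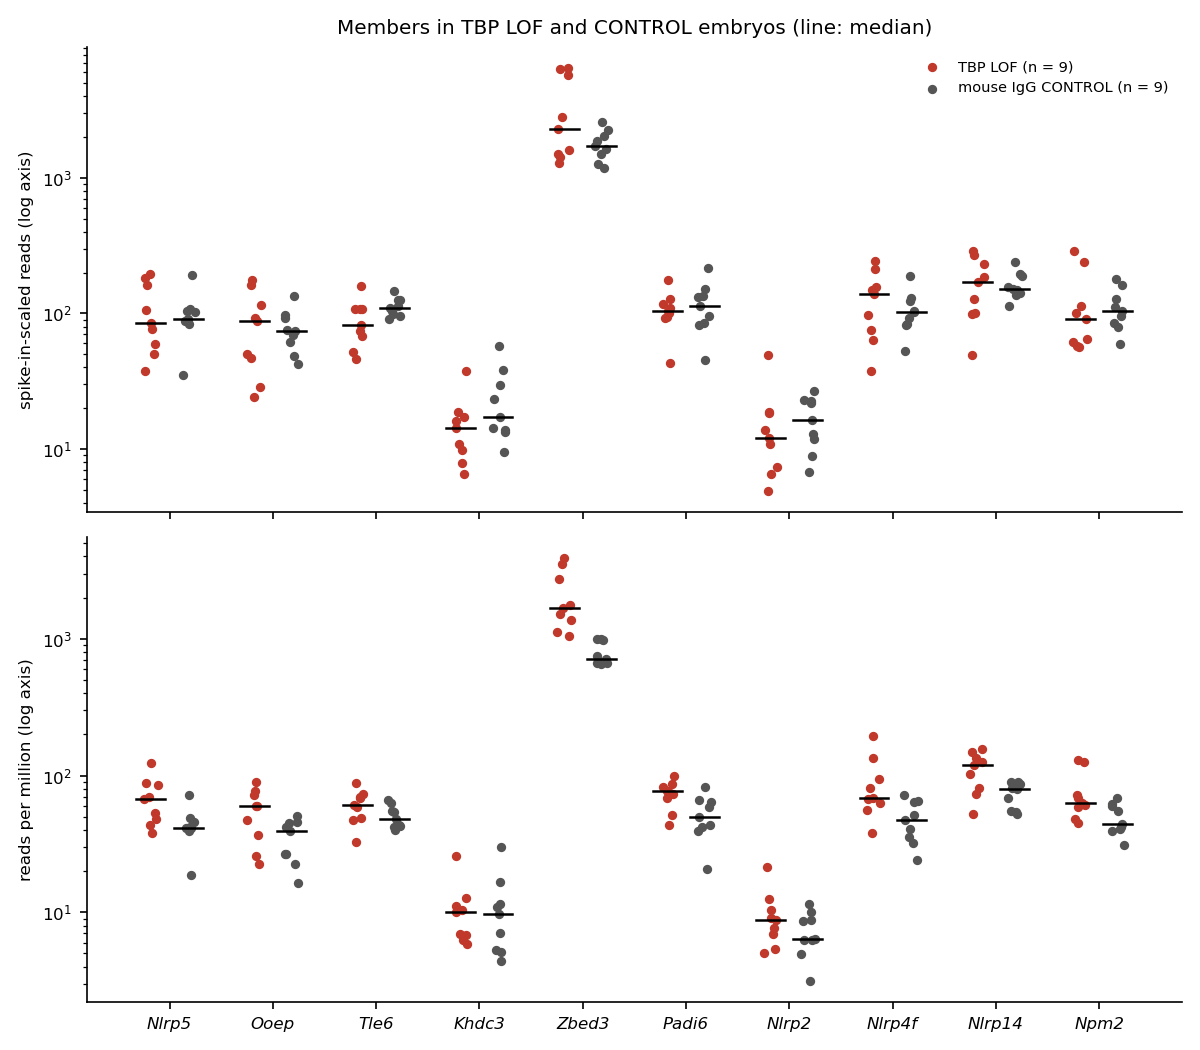
Each point is 1 embryo of the TBP experiment (TBP LOF and mouse IgG CONTROL, n = 9 each) and each line a median, in spike-in-scaled reads (upper panel) and RPM (lower panel), both on log axes. Only for Zbed3 in RPM do the groups not overlap, and 3 TBP LOF embryos stand high for Zbed3 in spike-in-scaled reads.

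Among the core of the complex, Nlrp5, the founding member also known as MATER, was at 37.5, 85.0 and 194 spike-in-scaled reads in TBP LOF embryos (lowest, median and highest of 9) and at 35.4, 90.3 and 191 in CONTROL embryos. The groups overlapped along their whole length, and 4 of 9 LOF embryos lay above the CONTROL median, with a log2 fold change of 0.08 ± 0.32 (standard error; adjusted p = 0.884, edgeR's quasi-likelihood test). Ooep, an oocyte protein with a KH-like RNA-binding fold, ran from 24.4 through 88.4 to 176 in LOF and from 42.3 through 74.1 to 134 in CONTROL embryos. Its LOF embryos reached both below and above the CONTROL range, by 2 embryos on each side, and its log2 fold change was 0.16 ± 0.34 (adjusted p = 0.781).

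Tle6, a Groucho-family protein of the core, spanned 46.1, 82.7 and 160 in LOF against 90.3, 109 and 146 in CONTROL embryos. Here 5 of 9 LOF embryos fell below the lowest CONTROL embryo and 1 of 9 lay above the CONTROL median, but the log2 fold change of -0.32 ± 0.29 did not pass (adjusted p = 0.447). Khdc3, the KH-domain protein known as FILIA that guards chromosome segregation in the cleaving embryo, had the lowest estimate of the 10 at -0.65 ± 0.42 (adjusted p = 0.259), with 6.52, 14.3 and 37.9 in LOF and 9.48, 17.3 and 57.3 in CONTROL embryos. The groups overlapped, and Khdc3 rested on few reads, for which counting alone gave a coefficient of variation of 23.5% at the mean reads of LOF embryos.

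Zbed3 was at 1292, 2293 and 6415 spike-in-scaled reads in TBP LOF and at 1179, 1713 and 2581 in CONTROL embryos. The LOF embryos fell into a high set, embryos 1, 2 and 8 at 5722, 6415 and 6306, and 6 others between 1292 and 2779 that lay mostly within the CONTROL range. In all, 5 of 9 LOF embryos lay above the CONTROL median and 4 above the highest CONTROL embryo. The groups overlapped, as with spike-in scaling they did for all 10 members, where 0.0103% of all genes and TE families were higher and 6.69% lower without overlap. The log2 fold change was 0.87 ± 0.33, or 1.83-fold (adjusted p = 0.0352, edgeR's quasi-likelihood test). This call depended on single embryos: it was lost without LOF embryo 2 (log2 fold change 0.69, adjusted p = 0.111), without LOF embryo 1 (0.73, 0.0901) or 8 (0.70, 0.0902), and without CONTROL embryo 1 (0.80, 0.0707), 9 (0.81, 0.0588), 10 (0.86, 0.0523) or 2 (0.85, 0.0518).

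As a share of RNA, Zbed3 separated TBP LOF from mouse IgG CONTROL embryos. Its RPM values were 1046, 1692 and 3868 in LOF and 656, 714 and 1005 in CONTROL embryos, so that 9 of 9 LOF embryos lay above the highest CONTROL embryo. With TMM its log2 fold change was 1.62 ± 0.25 (adjusted p = 2.7e-05), and the groups did not overlap on TMM-scaled reads either, which held upwards for 0.997% and downwards for 1.87% of all genes and TE families tested. The call stood in each of the 18 fits that left out 1 embryo under TMM. In rabbit IgG CONTROL embryos of the FOXJ3 experiment, Zbed3 was at 475, 1562 and 6047 RPM (lowest, median and highest). That range takes in the one of the TBP LOF embryos, and levels were not tested across the experiments.

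Padi6, a peptidylarginine deiminase relative needed for the cytoplasmic lattices, was at 43.0, 103 and 176 spike-in-scaled reads in TBP LOF and 45.1, 114 and 216 in CONTROL embryos. The ranges nearly coincided, at a log2 fold change of -0.14 ± 0.30 (adjusted p = 0.786). Of the further NLR family genes, Nlrp14 had 49.3, 169 and 286 in LOF and 113, 152 and 238 in CONTROL embryos, the LOF embryos being more spread than the CONTROL embryos (log2 fold change 0.05 ± 0.30, adjusted p = 0.935). Nlrp4f had 37.5, 139 and 244 against 52.4, 103 and 189, with 5 of 9 LOF embryos above the CONTROL median (0.29 ± 0.32, adjusted p = 0.548).

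Nlrp2, the member with the lowest level per kb, had 4.91, 12.1 and 49.2 in LOF and 6.77, 16.3 and 26.6 in CONTROL embryos, where the highest LOF embryo stood clear of the other 8 (log2 fold change -0.11 ± 0.45, adjusted p = 0.887). Npm2 was at 56.4, 90.2 and 287 in LOF and 59.0, 105 and 179 in CONTROL embryos, with 3 of 9 LOF embryos above the CONTROL median and 2 above the highest (0.08 ± 0.33, adjusted p = 0.892). For 8 of the 10 members the coefficient of variation of spike-in-scaled reads was higher in LOF than in CONTROL embryos, the exceptions being Khdc3 and Padi6. In RPM the count was also 8 of 10. The share over all genes was not computed, so this is not shown to be particular to the members. The spike-in share of reads itself ranged from 2.67 to 6.12% in LOF and from 2.22 to 3.25% in CONTROL embryos.

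Scaled by TMM, that is relative to the bulk of the RNA, 7 of the 10 members rose in TBP LOF embryos, against 12.8% of all genes and TE families called higher, 12.7% called lower and 25.5% in either direction. After Zbed3, the largest log2 fold changes were those of Nlrp4f (1.18 ± 0.27, adjusted p = 0.00178), Nlrp5 (0.89 ± 0.25, adjusted p = 0.00738), Npm2 (0.85 ± 0.24, adjusted p = 0.00812) and Ooep (0.85 ± 0.26, adjusted p = 0.0138). Nlrp14 (0.82 ± 0.22, adjusted p = 0.00651) and Padi6 (0.78 ± 0.23, adjusted p = 0.0118) completed the 7, while Nlrp2 (0.64 ± 0.36, adjusted p = 0.191), Tle6 (0.52 ± 0.21, adjusted p = 0.0649) and Khdc3 (0.19 ± 0.37, adjusted p = 0.748) did not pass. The sign of Tle6, Khdc3, Padi6 and Nlrp2 was negative with spike-in scaling and positive with TMM. The median over the members was 0.83, against 0.13 over all genes.

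RPM values show the same members embryo by embryo. Nlrp5 was at 38.1, 67.5 and 123 in LOF and 18.7, 41.4 and 72.6 in CONTROL embryos, and Nlrp14 at 52.1, 120 and 156 against 52.5, 80.1 and 90.4. Padi6 ran from 43.8 through 76.6 to 99.9 in LOF and from 20.9 through 50.2 to 82.8 in CONTROL embryos. These groups shifted against each other and still overlapped, as did those of every member except Zbed3. Summed over the 9 members other than Zbed3, the LOF embryos held a median of 538 RPM (404 to 699) and the CONTROL embryos 356 (301 to 473), whereas the sums of spike-in-scaled reads were 829 (399 to 1447) and 791 (652 to 1244).

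**Figure D3:**
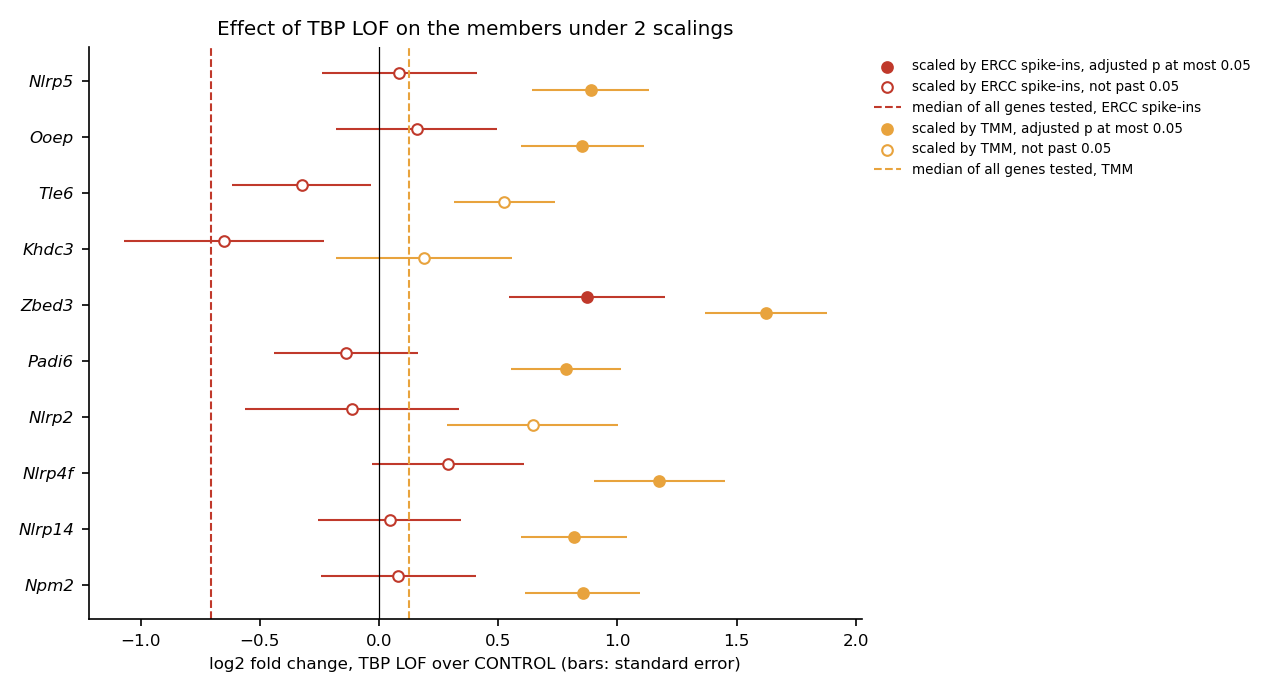
Log2 fold change of each member in TBP LOF over CONTROL embryos (point) with its standard error (bar), with spike-in scaling in red and TMM in orange, filled where the adjusted p was at most 0.05; dashed lines mark the median of all genes on each scale (-0.70 and 0.13). All 10 members lie to the right of the all-gene median of their scale, 1 filled with spike-in scaling and 7 with TMM.

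Removal of FOXJ3 gave no call among the members. In the TMM fit with library batch as a covariate, 0 of 10 passed, against 0.0102% of all genes and TE families (2 of 19517), and DESeq2 with the same covariate also called 0. One member, Nlrp4f, had an unadjusted p under 0.05 (log2 fold change -0.69 ± 0.31, unadjusted p = 0.0325, adjusted p = 0.860). The estimates ran from Nlrp4f to Ooep at 0.22 ± 0.26, with a median of -0.15 over the members and -0.03 over all genes. Tle6 (-0.02 ± 0.15), Nlrp5 (-0.04 ± 0.19) and Padi6 (-0.05 ± 0.15) lay nearest to 0, and with spike-in scaling these 3 were at 0.14, 0.09 and 0.11. That scaling moved the median of all genes to 0.15 and also called 0 of 10.

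The estimates of Zbed3 and Nlrp4f differed between the library batches by more than those of the other members. In batch 1, Zbed3 was at 324, 681 and 1257 RPM in FOXJ3 LOF and at 475, 1140 and 6047 in CONTROL embryos. Batch 2 gave 1209, 2535 and 5381 in LOF and 1187, 1659 and 2589 in CONTROL embryos. LOF embryos were thus low in batch 1 and high in batch 2, the groups overlapping in both.

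Within batch 1 the log2 fold change of Zbed3 was -1.46 ± 0.42 (adjusted p = 0.388), and within batch 2 it was 0.58 ± 0.28 (adjusted p = 0.917), so that the value of -0.56 ± 0.34 over both batches (adjusted p = 0.916, edgeR's quasi-likelihood test) averages opposite signs. For Nlrp4f they were -1.31 ± 0.42 and 0.03 ± 0.29 (adjusted p = 0.428 and 1.00). The difference between the batches was not tested. CONTROL embryo 3 of batch 1 was the highest CONTROL embryo for both genes, with 6047 RPM for Zbed3 and 349 for Nlrp4f. In RPM the same embryo was also the highest for Nlrp5 (97.3), Ooep (55.6), Nlrp14 (139) and Npm2 (96.4). For Tle6, Khdc3, Padi6 and Nlrp2 another CONTROL embryo was the highest. Without it, Zbed3 was at -0.09 (adjusted p = 0.998) and Nlrp4f at -0.18 (adjusted p = 0.998) over both batches. LOF embryo 7 of batch 2 was the highest LOF embryo for both, at 5381 and 211.

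**Figure D4:**
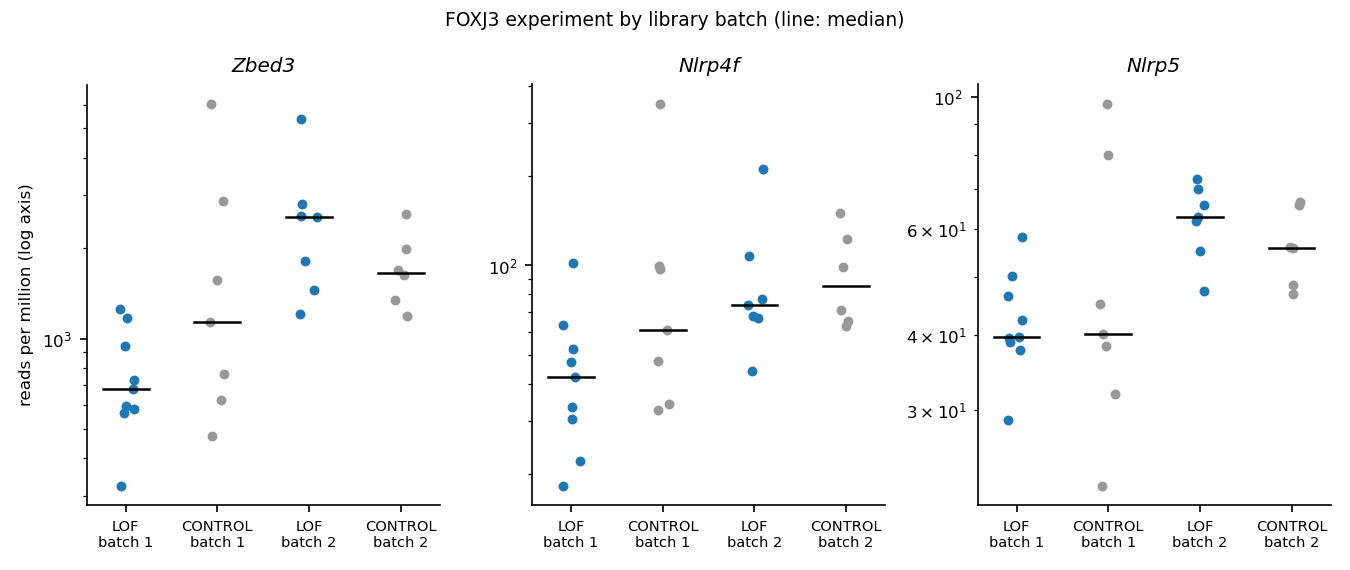
RPM (log axes with different ranges) of Zbed3, Nlrp4f and Nlrp5 in single FOXJ3 LOF and rabbit IgG CONTROL embryos of library batch 1 (9 and 7) and batch 2 (7 and 6), with medians as lines. The Zbed3 median is lower in LOF than in CONTROL embryos in batch 1 (681 and 1140) and higher in batch 2 (2535 and 1659).

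The effects of the 2 antibodies have separate CONTROL embryos and were set against each other in a single fit. With spike-in scaling 0 of 10 members differed between TBP LOF and FOXJ3 LOF, against 28.9% of all genes and TE families (28% lower and 0.911% higher in TBP LOF), and DESeq2 also called 0. Zbed3 came nearest, with a difference of 1.27 ± 0.54 on the log2 scale (unadjusted p = 0.0209, adjusted p = 0.0669), the only member with an unadjusted p under 0.05. With TMM 6 of 10 differed, all in the direction of a higher effect in TBP LOF, against 10.7% of all features higher and 21.6% in either direction. The 6 were Zbed3, Nlrp4f, Npm2, Nlrp5, Nlrp14 and Padi6.

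Related genes were compared through 4 lists, in which 67 of 74 genes could be tested. With spike-in scaling 19 of the 67 were lower in TBP LOF embryos and 0 higher (at an unadjusted p under 0.05, edgeR called 26 in either direction), whereas with TMM 7 were lower and 21 higher. Over all genes and TE families, 29.7% were called lower and 1.34% higher with spike-in scaling, and 12.7% lower and 12.8% higher with TMM. The share of the 67 called lower with spike-in scaling thus lay near that of all features. Genes for proteins described as partners or clients of the complex had lower RNA in 4 of 6 cases with spike-in scaling, with a median log2 fold change of -1.24. Among them were Aurka, the mitotic kinase (-2.21 ± 0.36, adjusted p = 1.91e-06), Cfl1, which encodes the actin-severing protein cofilin (-1.47 ± 0.31, adjusted p = 0.000158), and Mad2l1 of the spindle checkpoint (-1.21 ± 0.30, adjusted p = 0.00129). With TMM, Aurka (-1.45, adjusted p = 0.000282) and Cfl1 (-0.70, adjusted p = 0.0135) remained lower and Mad2l1 was at -0.39 (adjusted p = 0.145). On that scale 2 of the 6 were lower and 1 higher, Plk4, the kinase that starts centriole duplication (-0.15, adjusted p = 0.775 with spike-in scaling and 0.66, adjusted p = 0.0143 with TMM).

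Paralogs of the members other than the NLR genes were lower in 4 of 16 cases with spike-in scaling and higher in 0, with a median of -0.97, a share not above the 29.7% of all features called lower. Dppa5a, a KH-domain relative of Khdc3 and Ooep, fell from 2187 ± 821 to 499 ± 257 spike-in-scaled reads (log2 fold change -2.13 ± 0.32, adjusted p = 5e-07), and the CONTROL median lay above 9 of 9 LOF embryos. Zbed5 was at -1.65 ± 0.40 (adjusted p = 0.000775) and Tle4, a Groucho-family corepressor, at -1.42 ± 0.36 (adjusted p = 0.00135). With TMM 1 of the 16 was lower and 3 were higher, against 12.7% and 12.8% of all features. Only Dppa5a of the genes above passed on that scale (-1.10, adjusted p = 0.00747). Khdc1b was at 0.40 with spike-in scaling and passed as higher with TMM (1.24, adjusted p = 0.000381). Aes, a short Groucho-family protein, was at 0.29 (adjusted p = 0.703) and also passed as higher with TMM (1.12, adjusted p = 0.0429), as did Zbed4 (-0.10 with spike-in scaling, 0.71 with TMM, adjusted p = 0.0262), while Padi4 was at 0.48 (adjusted p = 0.700) and 1.21 (adjusted p = 0.216).

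By their median, the other NLRP genes lay closest to the members among the lists, which was not tested. With spike-in scaling they ran from -1.96 to 0.59, and 8 of 11 lay above the all-gene median, against 10 of 10 members. Of 11 tested, 2 were lower with spike-in scaling, Nlrp12 (-1.39 ± 0.43, adjusted p = 0.00973) and Nlrp4c (-1.62 ± 0.62, adjusted p = 0.0376), and the median was 0.07. Of all features, 29.7% were called lower on that scale. Nlrp3 was at -1.96 ± 0.88 and did not pass (adjusted p = 0.0863). With TMM, 5 of the 11 were higher and 0 lower, against 12.8% and 12.7% of all features, among them Nlrp9a (1.25), Nlrp9b (1.38) and Nlrp4b (1.33), at a median of 0.93. Many mouse NLRP genes are expressed in oocytes, and they arose by repeated duplication.

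Of other maternal effect genes, 9 of 34 were lower and 0 higher with spike-in scaling (median -0.20), near the 29.7% of all features called lower. The 9 were led by Ythdf2, a reader of methylated adenosine in RNA (-1.86 ± 0.32, adjusted p = 4.94e-06), Zp3 of the egg coat (-1.83 ± 0.34, adjusted p = 2.29e-05) and the chromatin remodeller Smarca4 (-1.52 ± 0.31, adjusted p = 8.65e-05). TMM called 4 lower and 12 higher (median 0.65), against 12.7% and 12.8% of all features. Bmp15, an oocyte growth factor, was at 0.69 ± 0.30 with spike-in scaling (adjusted p = 0.0753) and at 1.46 with TMM (adjusted p = 1.46e-05), Btg4, which recruits the deadenylase that clears maternal RNA, at 0.66 ± 0.32 (adjusted p = 0.112) and 1.49 (adjusted p = 0.000122), and Sebox at 0.57 ± 0.30 (adjusted p = 0.152) and 1.44 (adjusted p = 5.68e-05). In FOXJ3 LOF embryos 0 genes of the 4 lists passed in edgeR, and 5 had an unadjusted p under 0.05.

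**Figure D5:**
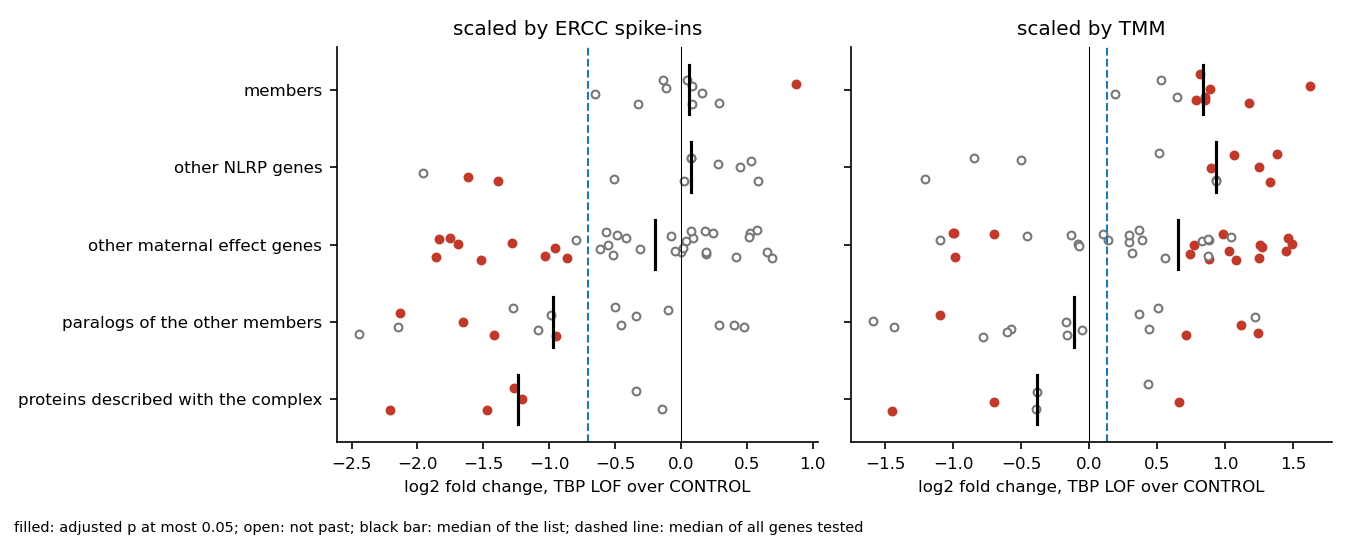
Log2 fold change in TBP LOF over CONTROL embryos of each gene tested, by list, with spike-in scaling (left) and TMM (right); filled points passed an adjusted p of 0.05, black bars are medians of a list and dashed lines the median of all genes (-0.70 and 0.13). The members (median 0.06 and 0.83) and the other NLRP genes (0.07 and 0.93) lie to the right of the proteins described with the complex (-1.24 and -0.39) on both scales.

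Markers of the embryo and of the cells that surround the egg were measured as well. All 10 genes of a 2-cell embryo list were detected, and their summed level was 450 to 1199 RPM (median 989) in TBP LOF and 149 to 634 (median 240) in CONTROL embryos. With spike-in scaling Tcstv3 (1.77 ± 0.34, adjusted p = 4.13e-05) and Usp17lc (1.38 ± 0.40, adjusted p = 0.00515) rose, 2 of 10 against 1.34% of all features, and with TMM 6 of 10 against 12.8%. Usp17ld was at 1.76 (adjusted p = 0.0764) and with TMM at 2.69 (adjusted p = 0.00882), and Zscan4c, the 1 gene of the 10 below 0, at -1.24 (adjusted p = 0.104) and, not passing with TMM either, at -0.62. Of 14 genes of cumulus and granulosa cells, 7 had a read in TBP LOF and 8 in CONTROL embryos, with sums of 7.67 to 18.1 (median 11.9) and 9.77 to 102 (median 27.7) RPM. Ptx3, Has2, Fshr, Inhba, Inha and Hsd3b1 were at 0 in every embryo of both groups, and 6 of the 14 could be tested. With spike-in scaling 2 of these 6 were lower and 0 higher, near the 29.7% of all features called lower, and 3 of the 6 lay above 0. Gja1 (-2.47 ± 0.44, adjusted p = 9.84e-06) and Tnfaip6 (-2.46 ± 0.75, adjusted p = 0.00865) were the 2 lower, and with TMM they were at -1.64 (adjusted p = 0.00281) and -1.68 (adjusted p = 0.101). Foxl2 went the other way, at 2.03 (adjusted p = 0.157) with spike-in scaling, and with TMM was called higher at 2.77 (adjusted p = 0.0409), on 13 reads over the 18 embryos. Ptgs2 (-2.47), Star (0.56) and Cyp19a1 (0.52) did not pass on either scale. The part of these differences in the values of the members was not tested.

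Some members cannot be fully separated from genes that overlap them or from near copies. Of all 50-base stretches of Khdc3 transcripts, 34.1% also occur in Gm20509, which overlaps it on the same strand, and 6.55% of those of Nlrp5 and 5.95% of those of Nlrp4f occur in other genes, led by Nlrp5-ps and Nlrp4g. For Ooep, Tle6 and Nlrp2 the share was between 0.712 and 2.39%, and for Zbed3, Padi6, Nlrp14 and Npm2 it was 0. Npm2 overlaps Xpo7, Zbed3 overlaps the small nucleolar RNA genes Snora47 and Gm22661, and Nlrp5 the microRNA gene Gm25196, all on the same strand. Nlrp2 overlaps the protein-coding gene Gm5065 and the pseudogene Gm18757 on the opposite strand, from which its reads cannot be told apart if strand was not used in counting. Counts of the members from the second counting program, which assigns reads to single TE insertions, equalled the first in 180 of 180 values of the TBP experiment.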

How the data were processed

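The authors checked reads with FASTQC, trimmed them with Trimmomatic, mapped 5' reads with STAR 2.7.11a to GRCm38 carrying the mCherry-Trim21 construct, and counted read 2 with TEcount and TElocal (gencode M20). The values the authors deposited are raw gene counts and, for TE families, an estimated count (expected count), all whole and not normalized. The sources used here do not state how multi-mapping reads were divided or whether strand was used. For TBP the Methods list 10 LOF and 9 CONTROL embryos. The labels, which were followed, list the reverse.

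Embryos with under 500000 reads or 1000 detected genes, or with over 10% mitochondrial or 15% ERCC reads, were left out. A feature was tested if 25% of embryos had 1 read or more, which left 19356 features for TBP, 19517 for FOXJ3 and 19657 for the difference. Tests were two-sided quasi-likelihood tests (edgeR 4.0.16, Benjamini-Hochberg over all features, threshold 0.05), with DESeq2 1.42.0, the tool of the study, as an alternative. ERCC spike-ins set the scale in the TBP experiment. In the FOXJ3 experiment it was TMM, and the fit had a term for library batch. Standard errors came from the F statistic. The fit was tested on simulated counts with the size factors taken as given, which does not test the choice of scaling. Gene models were those of gencode M21 and promoters those of RefSeq. Other software was R 4.3.3, Python 3.11.15, numpy 2.4.6, pandas 2.3.3 and matplotlib 3.10.9.

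Members and lists were chosen with earlier results of these data known. All members are named, and from each list the 3 genes with the smallest adjusted p per direction. Plk4 and Zbed4 were added after their values were seen. According to the Methods, the embryos stem from at least 3 independent experiments. No source used here says which TBP embryos were collected together, so the fits had no term for the experiment. The p-values thus measure the spread between single embryos taken as independent. Embryo numbers shared by LOF and CONTROL embryos were not taken as pairs in the main fits, and shared collection is not excluded. Reads carried no molecular identifiers, so counting errors cover counting only.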

Additional observations from a re-analysis of the deposited data

Results flagged for a closer look

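Dixon's test was applied to both ends of 60 sets of values (1 member in 1 group, or in 1 batch of the FOXJ3 experiment). In 10 sets an embryo stood apart from the rest of its group, each time the highest. The test's rate of about 1 in 20 holds for normal values at either end. Untransformed reads need not be normal, and the members share embryos, so the 10 cannot be read as an excess. In TBP LOF these were Khdc3 in embryo 1, at 37.9 spike-in-scaled reads against 6.52 to 18.9 in the other 8, and Nlrp2 in embryo 8, at 49.2 against 4.91 to 18.9. In mouse IgG CONTROL embryos it was Nlrp5 in embryo 6, at 191 against 35.4 to 107.

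In the FOXJ3 experiment, on TMM-scaled reads, CONTROL embryo 3 of batch 1 stood high for 3 members: Zbed3 at 14272 against 854 to 5928, Nlrp4f at 825 against 58.7 to 206, and Ooep at 131 against 17.2 to 66.4. CONTROL embryo 6 of the same batch stood high for Padi6, at 228 against 94.7 to 140. Among LOF embryos of batch 2, embryo 7 stood high for Zbed3, at 11462 against 2373 to 6129, and for Nlrp4f, at 450 against 86.8 to 235, and embryo 5 for Khdc3, at 40.1 against 5.47 to 19.1.

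The effect of TBP LOF exceeded that of FOXJ3 LOF for 6 members when scaled by TMM (edgeR's quasi-likelihood test of the difference, Benjamini-Hochberg). The difference on the log2 scale was 2.20 for Zbed3 (adjusted p = 0.00104), 1.89 for Nlrp4f (adjusted p = 0.0035), 1.14 for Npm2 (adjusted p = 0.00623), 0.94 for Nlrp5 (adjusted p = 0.0232), 0.91 for Nlrp14 (adjusted p = 0.023) and 0.84 for Padi6 (adjusted p = 0.0136). With spike-in scaling 0 of the 10 members passed this test. Of all features, 21.6% passed with TMM (10.7% higher in TBP LOF) and 28.9% with spike-in scaling (0.911% higher).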

How the results depend on the processing

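Scaling decided the count of members called in TBP LOF: 1 with ERCC spike-ins, 7 with TMM and 7 with the size factors of DESeq2 over genes and TE families. It also decided the members that differ between TBP LOF and FOXJ3 LOF (0, and 6 with TMM) and the genes of the 4 lists, with 19 lower and 0 higher changing to 7 and 21. With TMM the sign turned in TBP LOF for Tle6 (0.52), Khdc3 (0.19), Padi6 (0.78) and Nlrp2 (0.64), with the DESeq2 size factors to 0.55, 0.21, 0.82 and 0.67, and in the difference for Ooep (0.65), Tle6 (0.55), Khdc3 (0.43) and Padi6 (0.84). Filters on low counts, the embryos that failed quality control and DESeq2 with spike-ins left the count of members at 1. Leaving out 1 embryo gave 0 to 1 members for TBP, 7 to 8 with TMM and 0 to 0 for FOXJ3. Over all genes tested (18081 to 18262 for TBP and 19010 to 19229 for FOXJ3), 5187 to 5861, 4101 to 4959 and 1 to 4 were called. Over those fits the log2 fold change in TBP LOF spanned 0 for Nlrp5 (-0.065 to 0.26), Ooep (-0.031 to 0.29), Padi6 (-0.25 to 0.014), Nlrp2 (-0.53 to 0.0093), Nlrp14 (-0.076 to 0.17) and Npm2 (-0.19 to 0.19), with TMM for Khdc3 (-0.045 to 0.43), and in FOXJ3 LOF for Nlrp5 (-0.12 to 0.14), Tle6 (-0.061 to 0.027), Padi6 (-0.10 to 0.031) and Nlrp14 (-0.15 to 0.060).

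In FOXJ3 LOF the sign turned with spike-ins for Nlrp5 (0.086), Tle6 (0.14) and Padi6 (0.11), and in batch 2 alone for Nlrp5 (0.21), Tle6 (0.0700), Padi6 (0.0050), Zbed3 (0.58), Nlrp4f (0.030) and Nlrp14 (0.0696). Deviations of LOF and CONTROL embryos with the same number correlated at -0.06 to 0.13 over 7 pairs of the TBP experiment (1 over 0.1). Over 12 pairs of the FOXJ3 experiment they correlated at -0.22 to 0.27 (3 over 0.1, all in batch 2). These values gave little sign of pairing by number in the TBP experiment and in batch 1. In batch 2, pairs 5, 6 and 7 were at 0.27, 0.20 and 0.15 and the rest at -0.05 to 0.07. The correlations cannot exclude shared collection, which need not follow the numbers. With the number as a replicate block, 1 member was called for TBP (Zbed3, 0.92, adjusted p = 0.0102), 5 with TMM and 0 for FOXJ3. Over all genes tested, these fits called 4770 of 18702, 3961 of 18702 and 0 of 19204. With the block the sign turned for Nlrp2 in TBP LOF (0.23) and for Nlrp5 (0.090), Tle6 (0.033) and Nlrp14 (0.037) in FOXJ3 LOF. In the difference between the experiments the block left 0 members called with spike-ins and 2 with TMM (Zbed3 and Nlrp4f). Of 18746 genes tested, these fits called 3922 and 2857, so the 2 members lay near the share of all genes. With the block and TMM the sign turned against spike-ins for Ooep (0.57), Tle6 (0.38), Khdc3 (0.52) and Padi6 (0.57). In mouse IgG CONTROL embryos the order of the members per kb kept 3 of 10 positions of the order in RPM. The block, leave-one-out and DESeq2 size factors under TMM and both blocks for the difference were added after seeing the data. Of 912 values under alternatives, 814 kept their direction and side of the threshold, 55 changed sign, and of those that kept their sign 28 gained the threshold and 15 lost it; the cause was not tested. Depth limits Khdc3 and Nlrp2 most, where counting error alone gave coefficients of variation of 19.7 to 26.6% at the mean reads of a group. Single embryos could hold fewer reads, such as 1 read of Nlrp2 in FOXJ3 LOF embryo 3 of batch 2.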

Other observations

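Across the 47 embryos, with levels after TMM centred within each group and batch, the members varied together to different degrees. The 45 pairs of members had Pearson's r from -0.22 to 0.67 (median 0.31), and 39 were above 0. Zbed3 and Nlrp4f were the closest pair (0.67). Nlrp5 followed the mean of the other 9 members most closely (0.71) and Padi6 least (0.00). Among 9263 other genes with at least 10 reads per embryo on average, the 5 whose levels most resembled the mean of the members were Gyg (0.88), Rbpms2 (0.85), Pla2g4c (0.82), Trim75 (0.81) and Zfp957 (0.81), where the median gene was at -0.08. These values share libraries, depth and scaling and describe the embryos only.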
